A study of Mus musculus with 10 samples.

Results

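The p53 pathway genes described here are 10 genes chosen by symbol: Trp53, its 2 inhibitors Mdm2 and Mdm4, and 7 genes that p53 is known to switch on, Ccng1, Gadd45a, Btg2, Sesn1, Sesn2, Phlda3 and Trp53inp1. They are 10 of the 24608 gene symbols in the count table. No rule on measured values picked them, but earlier results of these data were known when they were chosen. All 10 passed the filter on low counts. RNA was measured by 3′-end RNA-seq (CEL-Seq2, which reads the 3′ end of each transcript and counts molecules by a unique molecular identifier, UMI) in muscle stem cells (MuSCs, the satellite cells of skeletal muscle). MuSCs came from 5 control libraries (Trpm7+/+; Pax7CreERT2/+; Rosa26YFP) and 5 Trpm7 cKO libraries (Trpm7 flox/flox; Pax7CreERT2/+; Rosa26YFP), all from age-matched adult C57BL6 mice. Mice of both genotypes carried the tamoxifen-inducible Cre under Pax7 and the YFP reporter and were given tamoxifen, and 3000 sorted cells entered each library 3 days after cardiotoxin (CTX) injury of the muscle. TRPM7 is an ion channel that conducts Mg2+, and the comparison asks how its loss from MuSCs changes their transcripts after injury. Because Cre is driven by Pax7, recombination is limited to cells that expressed Pax7 and their progeny, and the sources used here do not state how many animals each library holds.

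p53, the protein of Trp53, is a transcription factor that is held at a low level by MDM2, a ubiquitin ligase that marks it for degradation, and by MDM4, which blocks its activity. When DNA is damaged or growth conditions fail, p53 escapes this control mostly at the level of protein, and it then raises genes that stop the cell cycle, repair DNA, limit growth signalling or kill the cell. Mdm2 is itself such a gene, which closes a feedback loop, and in MuSCs p53 is known for its part in the balance between quiescence, proliferation and differentiation. Transcript counts measure none of the protein's stability or activity.

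Sequences of p53-type sites in the promoters are shown first, since the genes were grouped here by a shared transcription factor. Windows of 250 bases before to 50 bases after the RefSeq transcription start (build GRCm38.p6) were matched by symbol for 9 of the 10 genes, with 11 windows because Mdm4 and Sesn1 have 2 starts each. Each window was searched on both strands for the p53 consensus decamer, the 10-base unit of which a full site has a pair, and 5 of these 9 genes held one (55.6%), against 9.55% of 27025 genes with a window. In the lines that follow the decamer is in capitals, each sequence reads 5′ to 3′ along the gene's strand, and all 5 lie before the RefSeq transcription start.
Trp53: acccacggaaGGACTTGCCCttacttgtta
Mdm2: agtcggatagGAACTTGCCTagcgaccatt
Ccng1: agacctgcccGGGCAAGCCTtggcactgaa
Gadd45a: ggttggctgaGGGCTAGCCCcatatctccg
Sesn1: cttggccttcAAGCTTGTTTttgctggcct
The Trp53 sequence lies at chr11:69580274-69580303 (+ strand) and the Mdm2 sequence at chr10:117710925-117710954 (− strand). That of Ccng1 lies at chr11:40755452-40755481 (− strand), that of Gadd45a at chr6:67037428-67037457 (− strand) and that of Sesn1 at chr10:41887256-41887285 (+ strand), before the second of its starts. The GENCODE annotation starts Gadd45a further upstream, at position 67037457, so that its decamer lies inside the gene by that annotation. The Sesn1 decamer also lies inside its gene by GENCODE, which starts Sesn1 far upstream, at position 41809935. No decamer had another within the spacing of a full site, and a match is a description of letters, not a site shown to be bound. Binding of p53 was not measured.

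Control libraries held between 914361 and 1097709 counts and Trpm7 cKO libraries between 205986 and 581121, so that depth moved with genotype. A single count was worth 0.994 to 1.16 normalized CPM (counts scaled by library total and TMM factor) in control libraries and 1.66 to 5.52 in Trpm7 cKO libraries. The mitochondrial share of counts was 12.0% to 16.5% in control libraries and 8.82% to 10.6% in Trpm7 cKO libraries. MuSC markers were present in every library, with a summed level of 4228 to 4868 normalized CPM over 16 genes in control and 3049 to 5004 in Trpm7 cKO libraries, but the genes of this sum moved in both directions. Of 15 tested MuSC markers, 8 were called higher, among them Pax7 (1.19) and Chodl (3.49), and 4 lower, among them Myod1 (−2.01), Met (−1.49) and Chrna1 (−2.61) (log2 fold changes), and Pax7 was counted at least 101 times in each library. Markers of other cells were also higher in Trpm7 cKO libraries, although the sorted cells were YFP-positive. Of 34 leukocyte markers 25 passed the filter, all 25 were called higher, and their summed level was 474 to 807 normalized CPM in control and 1715 to 7683 in Trpm7 cKO libraries. Among the listed markers Cd3e, Cd79a and Nkg7, of T, B and cytotoxic cells, were at 0 in every control library. In Trpm7 cKO libraries they had at most 1, 1 and 2 counts. The macrophage markers C1qa, Csf1r and Adgre1 had at least 4 counts in every library, but some other myeloid markers did not. Cx3cr1 was at 0 in control replicates 3, 4 and 5 and Spi1 was at 0 in control replicate 2. Which leukocytes the RNA came from was not tested. Summed endothelial markers (8 listed, both tested ones higher) were 5.36 to 56.7 in control and 101 to 640 in Trpm7 cKO libraries. Summed fibro-adipogenic progenitor markers (8 listed, 5 of 6 tested higher) were 1410 to 2647 and 2623 to 5194. Col3a1, the 1 tested marker not called, was the largest part of this sum, with means of 1179 and 1441. Pdgfra and Lum were below the filter. In such bulk samples, fewer cells of a type and less RNA per cell cannot be told apart. Below, the words Trpm7 cKO MuSCs stand for the whole sorted samples, with any other cells in them. The 3′-end count of Trpm7 was 76.9 normalized CPM on average in control and 71.4 in Trpm7 cKO libraries (log2 fold change −0.09 ± 0.20 SE, edgeR adjusted p = 0.723), and it does not check the deletion, because the position of the floxed exon is not given in the sources used here.

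Of the 10 p53 pathway genes, 4 were higher in Trpm7 cKO MuSCs (Sesn1, Btg2, Phlda3 and Gadd45a), 2 were lower (Trp53 and Ccng1), and 4 did not pass the test (Mdm2, Mdm4, Sesn2 and Trp53inp1). A gene was called where edgeR's quasi-likelihood test gave a Benjamini-Hochberg adjusted p below 0.05 over all 7753 tested genes. By this rule 24.6% of all tested genes were higher and 24.1% were lower, so neither count among the 10 was far from that background. Log2 fold changes of the 10 genes had a median of 0.46, against −0.01 over all tested genes, and ran from −1.12 for Trp53 to 2.44 for Sesn1. A log2 fold change beyond 1.5 together with the adjusted p was reached by 3 of them, against 12.0% of all tested genes. Normalized CPM did not overlap between the genotypes for 4 of them, against 34.5% of all tested genes.

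**Figure D1:**
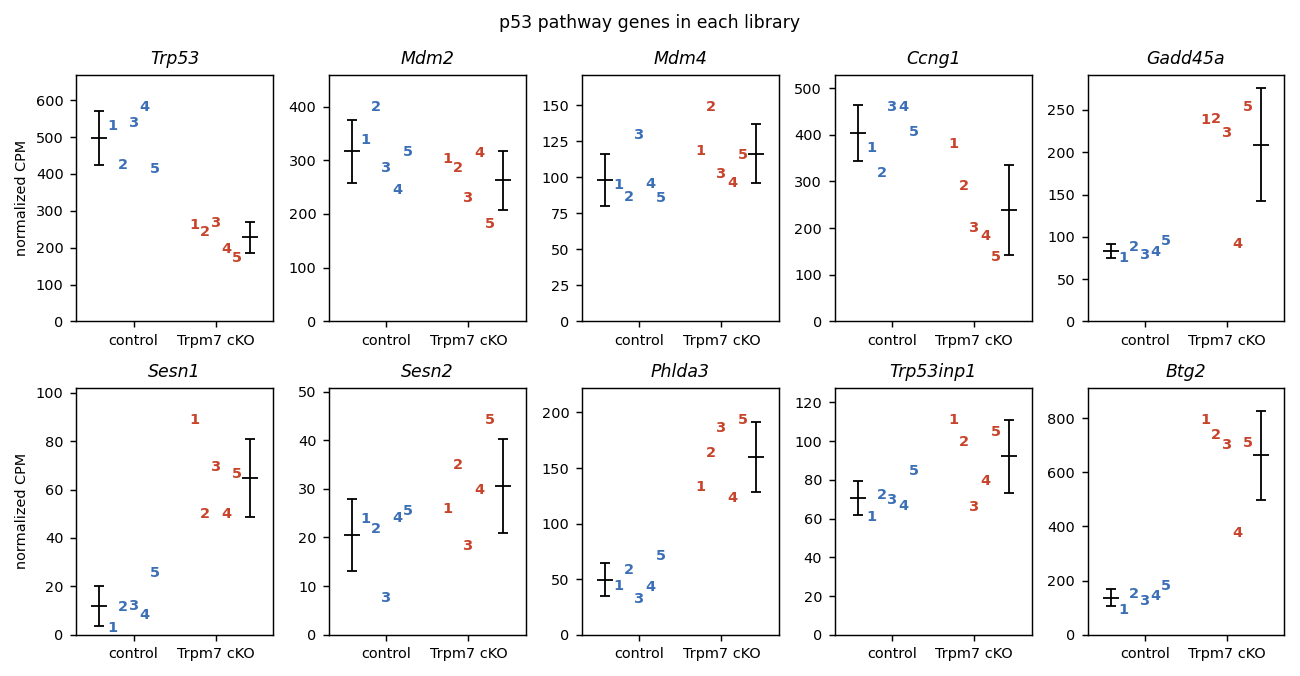
Normalized CPM of each p53 pathway gene (vertical axis, from 0) in the 5 control (blue) and 5 Trpm7 cKO (red) libraries, with the digit giving the replicate and the bar the mean ± SD. Trp53, Sesn1, Phlda3 and Btg2 do not overlap between genotypes, and Trpm7 cKO replicate 4 is the lowest of its group for Gadd45a and Btg2.

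Trp53 (ENSMUSG00000059552, chr11:69580359-69591873 in GRCm38, + strand, 11 exons) encodes p53 itself, and its transcript fell by 1.12 on the log2 scale in Trpm7 cKO MuSCs. Control replicates 1 to 5 had 530.0, 424, 537, 582 and 414 normalized CPM, from 533, 411, 501, 580 and 358 counts. The Trpm7 cKO replicates had 261, 243, 267, 197 and 171 normalized CPM, from 141, 132, 73, 119 and 31 counts. The lowest control library was above the highest Trpm7 cKO library. Means were 498 ± 74.3 and 228 ± 41.7 (SD, n = 5 each), 2.17-fold higher in control, and the difference was larger than the spread between replicates (SE 0.15, edgeR adjusted p = 7.15e-06). Trpm7 cKO replicate 2, which had the least leukocyte marker RNA of its group, was at 243. Its summed leukocyte markers, 1715 normalized CPM, were still above the highest control sum, 807. With the mean log2 leukocyte marker level as a covariate (the summed level did not overlap between genotypes), the difference was −0.43 and no longer passed (edgeR adjusted p = 0.614, where the 22 alternatives, DESeq2 included here and in later ranges, ran from 4.21e-14 to this value). Under that covariate 4.80% of all tested genes were called higher and 1.72% lower, against 24.6% and 24.1% without it. The part of other cell types in the difference was not tested further.

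Mdm2 (ENSMUSG00000020184, chr10:117688875-117710758, − strand, 12 exons), the ubiquitin ligase that p53 both induces and is degraded by, did not pass the test. Its control libraries had 338, 399.6, 285, 245 and 315 normalized CPM, and its Trpm7 cKO libraries had 303, 285, 230.2, 313 and 182. The ranges overlapped, and Trpm7 cKO replicates 3 and 5, the 2 smallest libraries, were the ones below all controls. The log2 fold change was −0.24 ± 0.16 SE with a 95% confidence interval of −0.58 to 0.10 (edgeR adjusted p = 0.24), so a fall as large as that of Trp53 lies outside the interval. Without the filter on low counts, which moved the median of all genes to 0.17, the same gene was called lower at −0.44 (edgeR adjusted p = 0.0324, where the alternatives ran from 0.00134 to 0.750).

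Mdm4 (ENSMUSG00000054387, chr1:132959484-133030561, − strand) encodes the inhibitor that binds p53 without degrading it, and it also did not pass the test. Control libraries had 94.5, 86.7, 129.8, 95.4 and 85.7 normalized CPM and Trpm7 cKO libraries 118, 149, 102, 96.1 and 116. Control replicate 3 stood above the other controls, and it was the one control inside the range of the Trpm7 cKO libraries. The log2 fold change was 0.25 ± 0.17 SE (95% confidence interval −0.10 to 0.60, edgeR adjusted p = 0.232). In the last 500 bases of the Mdm4 transcript, 31.9% of stretches of 31 bases also occur in the pseudogene Mdm4-ps, so its count is uncertain where reads could be assigned to either. The same share was 2.13% for Trp53 with Trp53-ps and 0 for the other 8 genes. No annotated gene overlapped the last 500 bases of the last exon of any of the 10, and the rest of these exons was not checked.

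Relative to Trp53 in the same library, a measure into which no scaling between libraries enters, the transcripts of both inhibitors were higher in Trpm7 cKO MuSCs. Mdm2 counts per Trp53 count were 0.638, 0.942, 0.531, 0.421 and 0.760 in control libraries and 1.16, 1.17, 0.863, 1.59 and 1.06 in Trpm7 cKO libraries, with overlap only between control replicate 2 and Trpm7 cKO replicate 3. Mdm4 counts per Trp53 count were 0.164 to 0.242 in control and 0.384 to 0.677 in Trpm7 cKO libraries, without overlap. The controls thus had more Trp53 than Mdm2 counts in every library, and 4 of the 5 Trpm7 cKO libraries had fewer. Of the 9 genes other than Trp53, 7 were higher without overlap on this measure and 0 lower, against 53.6% and 1.11% of all other tested genes. Since Trp53 itself was lower, this measure is raised for any gene that did not change. Ccng1 was the gene nearest to Trp53, with 0.702 to 0.980 counts per Trp53 count in control and 0.753 to 1.46 in Trpm7 cKO libraries.

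Among the genes of growth arrest, Btg2 and Gadd45a were higher and Ccng1 was lower in Trpm7 cKO MuSCs. Btg2 (ENSMUSG00000020423, chr1:134075170-134079120, − strand, 2 exons) encodes an antiproliferative protein that recruits the machinery of mRNA deadenylation and that responds to growth factors and stress as well as to p53. It had 92.5, 151, 123, 143 and 178 normalized CPM in control libraries and 793, 738, 702, 376 and 706 in Trpm7 cKO libraries. Every Trpm7 cKO library was above every control, with replicate 4 standing below the other 4. The difference was 4.81-fold (log2 fold change 2.27 ± 0.20 SE, edgeR adjusted p = 6.33e-08), from 137 ± 32.0 to 663 ± 164 (SD, n = 5 each). Of the 10 genes it was the one with the smallest adjusted p.

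Gadd45a (ENSMUSG00000036390, chr6:67035096-67037457, − strand, 4 exons), which encodes a stress sensor that binds PCNA and CDK1 and acts in arrest and DNA repair, also had its lowest Trpm7 cKO level in replicate 4. Control libraries had 74.6, 87.8, 78.3, 82.3 and 94.9 normalized CPM and Trpm7 cKO libraries 238, 239, 223, 91.1 and 254. Trpm7 cKO replicate 4 was the only one inside the control range, and the other 4 lay above all controls. The log2 fold change was 1.29 ± 0.21 SE, or 2.45-fold (edgeR adjusted p = 5.65e-05), and 1.49 without replicate 4. That library also had the highest summed leukocyte markers, 7683 normalized CPM, and the lowest summed MuSC markers, 3049. In replicate 2, with the lowest summed leukocyte markers of the Trpm7 cKO group (1715), Gadd45a was 239 and Btg2 was 738. That sum was still above the highest control sum, 807, and the part of leukocytes in these values was not tested. With the libraries of the 2 highest leukocyte sums left out, replicates 4 and 5, the 10 genes gave 4 higher and 2 lower calls, beside 23.5% and 22.9% of all tested genes.

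**Figure D2:**
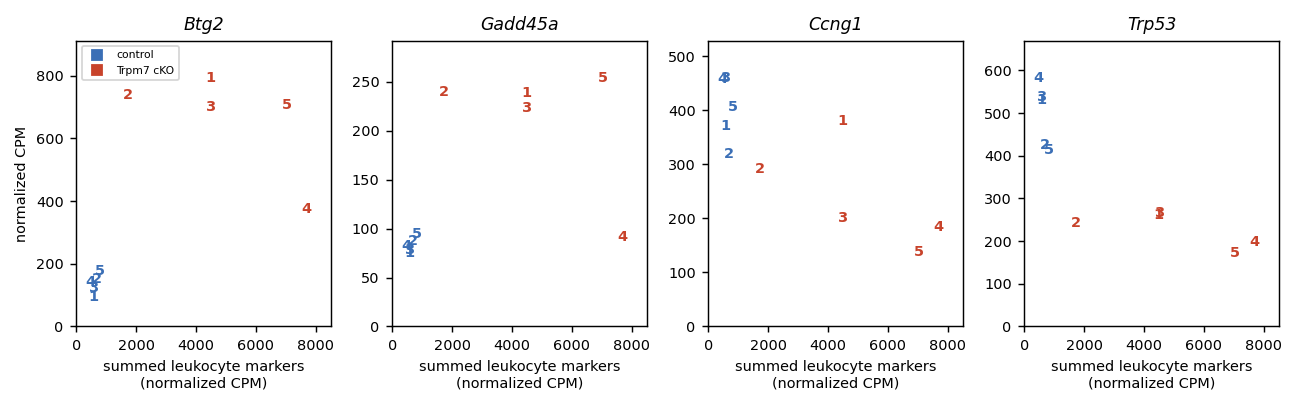
Normalized CPM of Btg2, Gadd45a, Ccng1 and Trp53 (vertical axis) against the summed normalized CPM of 34 leukocyte markers (horizontal axis) in each control (blue) and Trpm7 cKO (red) library, with digits giving the replicate. Btg2 and Gadd45a are lowest among Trpm7 cKO libraries in replicate 4, where the markers are highest, and Ccng1 is lowest in replicate 5.

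Ccng1 (ENSMUSG00000020326, chr11:40748552-40755311, − strand, 6 exons) encodes cyclin G1, a p53 target that brings the phosphatase PP2A to MDM2, and it fell by 0.72 on the log2 scale in Trpm7 cKO MuSCs. Its control libraries had 372, 319, 460.1, 459 and 406 normalized CPM, and its Trpm7 cKO libraries had 381, 291, 201, 184 and 138. The groups overlapped, because Trpm7 cKO replicate 1 lay within the control range. Means were 403 ± 60.0 and 239 ± 96.7 (SD, n = 5 each), and the difference passed the test (SE 0.21, edgeR adjusted p = 0.00746). The spread between Trpm7 cKO libraries was the widest of the 10 genes in that group, a coefficient of variation of 40.5%. Ccng1 was lowest in the Trpm7 cKO replicates 4 and 5, where the leukocyte markers were highest (7683 and 7025). Replicates 1, 2 and 3 had marker sums of 4464, 1715 and 4516, with Ccng1 at 381, 291 and 201. The covariate of leukocyte markers turned its direction, to 0.41 (edgeR adjusted p = 0.699, the highest of its alternatives, which began at 3.90e-07). With that covariate 1.72% of all tested genes were called lower. The part of leukocytes in the Ccng1 values was not tested.

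Sestrins restrain mTORC1 signalling and oxidative stress, and of the 2 p53-induced members Sesn1 rose while Sesn2 did not pass the test. Sesn1 (ENSMUSG00000038332, chr10:41809935-41908424, + strand, 10 exons) had only 3, 11, 11, 8 and 22 counts in control libraries, against 48, 27, 19, 30 and 12 in the shallower Trpm7 cKO libraries. As normalized CPM these were 2.98, 11.4, 11.8, 8.03 and 25.5 in control and 88.7, 49.7, 69.4, 49.7 and 66.2 in Trpm7 cKO. All 5 Trpm7 cKO libraries were above all 5 controls, and control replicate 5 was the highest control. The log2 fold change of 2.44 ± 0.34 SE was the highest of the 10 (5.43-fold, edgeR adjusted p = 9.75e-06), and its SE was the widest of the 10, with a control coefficient of variation of 70.0%. It no longer passed with the leukocyte covariate, at 1.89 (edgeR adjusted p = 0.205, the highest of its alternatives, which began at 5.23e-15). Under that covariate 4.80% of all tested genes were called higher.

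Sesn2 (ENSMUSG00000028893, chr4:132492032-132510501, − strand, 10 exons), which also answers amino acid and endoplasmic reticulum stress, had 23.9, 21.7, 7.51, 24.1 and 25.5 normalized CPM in control and 25.9, 35.0, 18.3, 29.8 and 44.1 in Trpm7 cKO libraries. Control replicate 3 lay far below the other controls, on 7 counts, and the groups overlapped through Trpm7 cKO replicate 3, on 5 counts. The log2 fold change was 0.54 ± 0.30 SE (95% confidence interval −0.09 to 1.17, edgeR adjusted p = 0.147), and it was 0.32 without control replicate 3. Whether the change of Sesn1 differs from that of Sesn2 was not tested.

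Phlda3 and Trp53inp1 act on survival signalling and on cell death and autophagy, and Phlda3 alone passed the test. Phlda3 (ENSMUSG00000041801, chr1:135766119-135769136, + strand, 2 exons) encodes a small protein that competes with AKT for membrane lipids. It had 43.8, 57.8, 32.2, 43.2 and 70.6 normalized CPM in control libraries and 133, 164, 186, 123 and 193 in Trpm7 cKO libraries. The lowest Trpm7 cKO library lay above the highest control, and the mean was 3.14-fold higher (log2 fold change 1.65 ± 0.20 SE, edgeR adjusted p = 1.66e-06). With the leukocyte covariate the value was 1.51 and did not pass (edgeR adjusted p = 0.0729, where the alternatives ran from 2.14e-12 to 0.266). That setting called 4.80% of all tested genes higher.

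Trp53inp1 (ENSMUSG00000028211, chr4:11156431-11174379, + strand, 4 exons), whose protein takes part in autophagy and in p53 phosphorylation, had 60.7, 72.3, 69.7, 66.3 and 84.5 normalized CPM in control and 111, 99.4, 65.8, 79.5 and 105 in Trpm7 cKO libraries. In 3 of the Trpm7 cKO libraries the level was above all controls, and in replicates 3 and 4 it was not. The log2 fold change of 0.39 ± 0.17 SE (95% confidence interval 0.03 to 0.74) missed the threshold (edgeR adjusted p = 0.067). It was called higher without control replicate 5 (0.47), without Trpm7 cKO replicate 3 (0.47), without Trpm7 cKO replicates 3 and 5 together (0.45) and with library totals alone (0.48), so its call depends on these choices.

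The summed level of the 10 genes was 1632 to 1748 normalized CPM in control and 1539 to 2452 in Trpm7 cKO libraries. Replicate 4 was the lowest of the Trpm7 cKO libraries and the only one below the controls. Summed counts were 1469 to 1741 in control and 358 to 1327 in Trpm7 cKO libraries. Counts per 3000 sorted cells are a different scale, which keeps differences in library totals and on which the median of all genes was −1.15. Whether these totals follow RNA per cell was not tested. On that scale 4.90% of all tested genes were called higher and 66.6% lower, and the 10 genes gave 2 higher and 4 lower calls, with Gadd45a at 0.08 and Phlda3 at 0.46 no longer called. Mdm2 (−1.32) and Mdm4 (−0.89) were newly called lower, Mdm4 against its direction on the TMM scale, while Sesn2 (−0.61) and Trp53inp1 (−0.75) turned direction without passing. The 2 genes still called higher on that scale were Btg2 (1.08) and Sesn1 (1.30). On the TMM scale the 2.27 of Btg2 is a change relative to the library. Relative to the all-gene median, 7 of the 10 genes were above it with TMM factors, the same count as under DESeq2 and RLE factors.

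**Figure D3:**
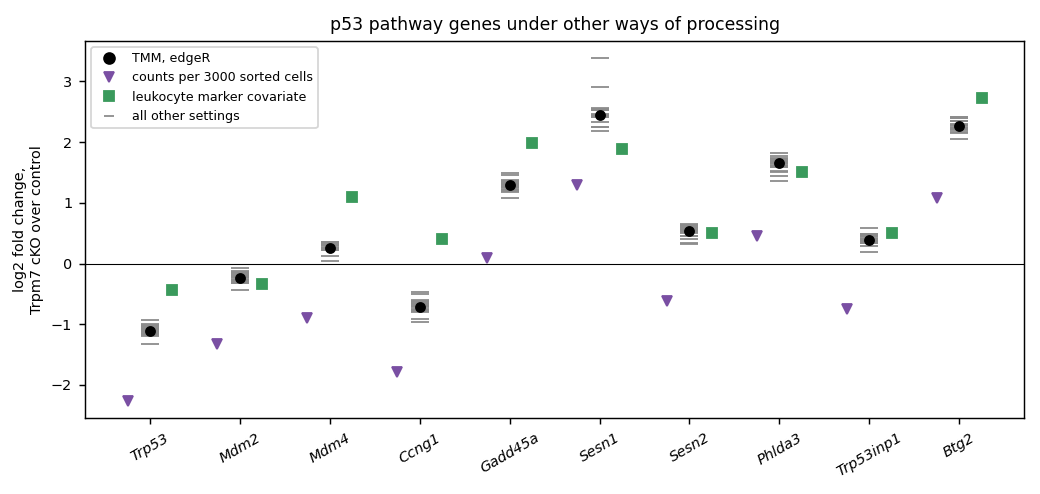
Log2 fold change of each p53 pathway gene in Trpm7 cKO over control MuSCs (vertical axis) with TMM factors (black points), with counts per 3000 sorted cells (purple triangles), with the leukocyte marker covariate (green squares) and under all other settings (grey bars). Counts per sorted cell lie lowest for every gene, and the covariate moves Ccng1 from −0.72 to 0.41.

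Paralogs, the other genes of the same families, gave 5 higher and 2 lower calls in Trpm7 cKO MuSCs among the 9 that passed the filter, of 13 listed (24.6% and 24.1% of all tested genes). Both GADD45 relatives rose, Gadd45b by 4.50 ± 0.25 SE on the log2 scale (edgeR adjusted p = 2.25e-10) and Gadd45g by 2.56 ± 0.18 SE (edgeR adjusted p = 4.30e-09). Gadd45b, which is induced by NF-κB and TGF-β signalling more than by p53, had 11.8 to 20.8 normalized CPM in control and 212 to 596 in Trpm7 cKO libraries. Gadd45g, a growth arrest gene of differentiating cells, had 45.4 to 76.4 and 237 to 405. Neither gene overlapped between genotypes, and their log2 fold changes stand beside 1.29 for Gadd45a.

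In the BTG/TOB family of antiproliferative genes, Btg1 rose by 1.98 ± 0.23 SE (edgeR adjusted p = 1.26e-06) and Tob1 by 0.70 ± 0.22 SE (edgeR adjusted p = 0.0115), while Tob2 was at 0.24 (edgeR adjusted p = 0.302). Phlda1, a relative of Phlda3, rose by 1.25 ± 0.18 SE (edgeR adjusted p = 9.30e-06), from 124 to 196 normalized CPM in control to 254 to 486 in Trpm7 cKO libraries. The cyclin relative Ccng2, which FOXO factors induce, fell by 0.81 ± 0.21 SE (edgeR adjusted p = 0.00343). Sesn3, the sestrin under FOXO rather than p53 control, fell by 0.88 ± 0.26 SE (edgeR adjusted p = 0.0096), and Trp53inp2 was at −0.04 (edgeR adjusted p = 0.902). Cyclin G transcripts were thus lower for both members, and the sestrins moved in different directions. The p53 relatives Trp63 and Trp73 were below the filter, with at most 5 and 1 counts in any library, as were Phlda2 and Btg3.

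**Figure D4:**
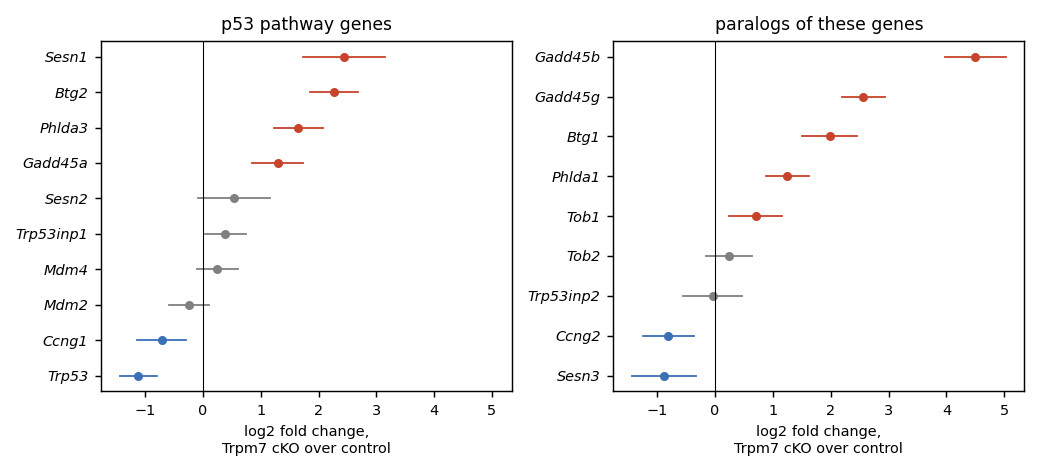
Log2 fold change in Trpm7 cKO over control MuSCs (horizontal axis) with its 95% confidence interval for the 10 p53 pathway genes and for the 9 tested paralogs, in red where called higher, blue where called lower and grey where not called. Gadd45b has the highest value of either panel, 4.50, and Trp53 the lowest, −1.12.

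Other targets of p53 gave 11 higher and 10 lower calls in Trpm7 cKO MuSCs among the 37 that passed the filter, of 50 listed and 48 in the table, with a median log2 fold change of 0.01. Beside the shares of all tested genes, 24.6% higher and 24.1% lower, these counts are near the background. Sco2 and Pltp were not analysed here. Cdkn1a, the p21 inhibitor of cyclin-dependent kinases and the classic p53 target, fell by 0.65 ± 0.14 SE (edgeR adjusted p = 7.86e-04). It had 1952 to 2332 normalized CPM in control and 1034 to 1577 in Trpm7 cKO libraries, without overlap. Bax, which permeabilizes the mitochondrial membrane in apoptosis, fell by 0.73 ± 0.22 SE (edgeR adjusted p = 0.00883), from 65.4 to 139 normalized CPM in control to 38.8 to 68.1 in Trpm7 cKO libraries. Both were thus on the side of Trp53 and Ccng1, and not on that of Btg2, Sesn1 and Phlda3.

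By role, 3 of 10 tested genes of arrest and DNA repair were higher and 3 were lower. Of 11 tested genes of apoptosis, 1 was higher and 3 were lower, and of 16 tested genes of metabolism and other functions, 7 were higher and 4 were lower. The highest was Fas, the death receptor, at 2.92 ± 0.32 SE (edgeR adjusted p = 5.77e-07), with 5.02 to 9.65 normalized CPM in control and 24.9 to 88.3 in Trpm7 cKO libraries. Next were Gdf15, a stress-induced cytokine of the TGF-β family, at 2.03 ± 0.32 SE, and Ddit4, the REDD1 inhibitor of mTORC1, at 1.77 ± 0.35 SE. The antigen peptide transporter Tap1 was at 1.61 ± 0.32 SE, and none of these 4 overlapped between genotypes. Fas and Tap1 are also expressed by leukocytes, whose markers were higher in the same libraries, and the part of those cells was not tested.

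Among the lowest targets, Tigar, a fructose bisphosphatase that redirects glycolysis, fell by 1.52 ± 0.30 SE on the log2 scale, from 23.2 to 36.1 normalized CPM in control to 3.65 to 16.6 in Trpm7 cKO libraries. Ckap2, a spindle protein of dividing cells, fell by 1.36 ± 0.20 SE, Thbs1, a matrix glycoprotein that restrains angiogenesis, by 1.16 ± 0.19 SE, and the chaperone Hspa4l by 1.09 ± 0.17 SE. All 4 were without overlap between genotypes. In the apoptosis group Bbc3 and Pmaip1, which encode the BH3-only proteins PUMA and NOXA, did not pass the test, at −0.42 (edgeR adjusted p = 0.183) and 0.01 (edgeR adjusted p = 0.962). Eda2r and Triap1 of that group fell by 1.00 each.

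Of 24 listed regulators of p53, 16 passed the filter, and these gave 3 higher and 4 lower calls in Trpm7 cKO MuSCs, near the shares of all tested genes (24.6% and 24.1%). Those higher were the acetyltransferases Crebbp, at 0.90 ± 0.20 SE, and Ep300, at 0.40 ± 0.14 SE, and the phosphatase Ppm1d (WIP1), itself a p53 target, at 0.68 ± 0.26 SE. Lower were Rpl5, a ribosomal protein that binds MDM2, by 1.33 ± 0.20 SE, and Chek1, the checkpoint kinase of replication stress, by 1.13 ± 0.29 SE. The kinase Hipk2 fell by 0.90 ± 0.32 SE and the p53 deubiquitinase Usp10 by 0.65 ± 0.18 SE. Ribosomal protein genes have many processed pseudogenes, so the count of Rpl5 is uncertain, and Rpl11, the other MDM2-binding ribosomal protein listed, was at 0.13 (edgeR adjusted p = 0.437). The damage kinases Atm (−0.32) and Atr (0.86) did not pass the test, and neither did the MDM2 deubiquitinase Usp7 (−0.06). Without control replicate 1, without control replicate 3 or without Trpm7 cKO replicate 2, the count of higher regulators was 1. Of all tested genes 24.1%, 23.8% and 23.5% were called higher in these settings.

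**Figure D5:**
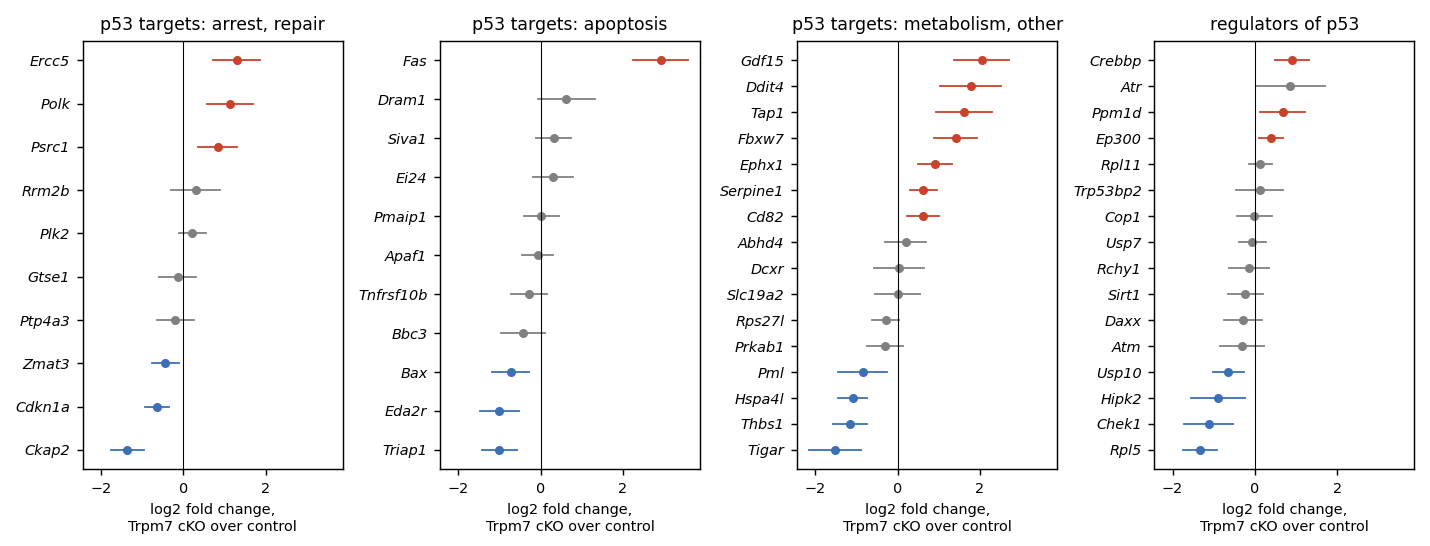
Log2 fold change in Trpm7 cKO over control MuSCs (horizontal axis) with its 95% confidence interval for the tested p53 targets by role and for the tested regulators of p53, in red where called higher, blue where called lower and grey where not called. Fas (2.92) is the highest and Tigar (−1.52) the lowest, and Cdkn1a and Bax lie below 0.

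For 3 of the genes, those whose pattern over the 10 libraries was nearest were named by the smallest root mean square difference of centred log2 CPM. Nearest to Trp53 were Brix1, a ribosome biogenesis factor, the peptidase gene Tpp2 and the ribosomal protein gene Rps2, each at 0.12, where the median over all tested genes was 0.69. Nearest to Ccng1 were the tetraspanin Cd81 (0.13), the ubiquitin ligase Nedd4 (0.15) and Ptcd2 (0.16), with a median of 0.68. For Mdm2 they were Slc35b1 (0.15), Entr1 (0.16) and Pik3r4 (0.16), with a median of 0.52. The genes near Trp53 had log2 fold changes of −1.18, −1.05 and −0.99, and those near Ccng1 of −0.67, −0.94 and −0.76. Those near Mdm2 were at −0.13, −0.30 and −0.06, as the measure selects for a shared difference between genotypes.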

How the data were processed

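Before deposition, the authors took barcodes and UMIs from the reads by UMI-tools 1.1.4, trimmed reads with Trim Galore 0.6.10, aligned them to GRCm38 with HISAT2 2.2.1, assigned them to genes with featureCounts 2.0.6 and removed UMI duplicates, so each deposited value is a whole-number UMI count for 1 gene, not normalized. The annotation release and strand setting are not given in the sources used here. Of 24620 entries, 24608 symbols were kept, the entry with the larger total carrying a repeated symbol. Genotype came from the labels (5 libraries each), which do not say whether Trpm7 cKO replicates 4 and 5, whose library names share a number, are from separate animals, so that p-values measure the spread between these libraries.

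Counts were fitted with edgeR 4.0.16 in R 4.3.3, with genotype as the only term. Genes were kept by filterByExpr (minimum count 10, minimum total 15), leaving 7753, followed by TMM factors, a robust quasi-likelihood F test and Benjamini-Hochberg adjustment over all of them. A gene was called at an adjusted p below 0.05, and a log2 fold change beyond 1.5 was counted beside it. Intervals are at 95%, and log2 CPM used a prior count of 2. Named were all 10 genes and their paralogs, Cdkn1a and Bax, and from the target and regulator lists the 4 highest and 4 lowest called genes with a mean of at least 10 counts in 1 genotype. Atm, Atr, Usp7, Rpl11, Bbc3, Pmaip1, Eda2r and Triap1 were named after their values were seen. The genes and lists were chosen with earlier results of these data known. The fit was tested on simulated counts for this comparison with 200 genes changed, of which 196 were among the 7929 tested. Called were 58 of 58 genes lowered 4-fold, 37 of 46 lowered 2-fold, 35 of 40 raised 2-fold and 52 of 52 raised 4-fold. Of the unchanged genes 4 were called. In the data 24.6% of tested genes were called higher and 24.1% lower, a larger share than the simulation changed. How the fit does with that many changed genes was not tested. Gene positions and last exons came from the GENCODE annotation of GRCm38 and promoter sequences from RefSeq (GRCm38.p6).

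Alternatives were DESeq2 1.42.0, RLE factors, library totals alone, scaling on MuSC markers, counts per 3000 sorted cells, no filter, counts thinned to the smallest library, the replicate number as a block, a leukocyte marker covariate, each library left out in turn, and Trpm7 cKO replicates 4 and 5 summed. Leaving out the 2 smallest Trpm7 cKO libraries, and the 2 with the highest leukocyte markers, was chosen after seeing the data.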

Additional observations from a re-analysis of the deposited data

Results flagged for a closer look

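In 4 of 20 groups of 5 libraries (10 genes in each genotype), the highest or lowest library stood apart from the others by Dixon's criterion at 95%, which chance alone meets in about 1 of 20 groups. Mdm4 was 129.8 normalized CPM in control replicate 3, where the next control was 95.4. Sesn2 was 7.51 normalized CPM in the same library, where the next control was 21.7. Gadd45a was 91.1 normalized CPM in Trpm7 cKO replicate 4, where the next library was 223. Btg2 was 376 normalized CPM in that library, where the next was 702. Trpm7 cKO replicate 4 had the highest summed leukocyte markers and the lowest summed MuSC markers of its group, and the part of these in both values was not tested. Without it, the log2 fold change was 1.49 for Gadd45a and 2.40 for Btg2. Without control replicate 3 it was 0.36 for Mdm4 and 0.32 for Sesn2.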

How the results depend on the processing

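Of the 10 genes' log2 fold changes under 22 alternatives, 204 kept both direction and side of the threshold, 6 passed it newly in the same direction, 5 no longer passed in the same direction and 4 turned direction (of these Mdm4 passed newly and Ccng1 no longer passed), with no value for Sesn2 in the thinned counts, where it was filtered out. Under DESeq2, RLE factors, library totals, MuSC marker scaling, no filter, thinning, the replicate block, the summed pair of libraries and each library left out, Trp53 and Ccng1 kept their calls as lower and Btg2, Sesn1, Phlda3 and Gadd45a as higher. With counts per 3000 sorted cells every library has the same scale, so that differences in library totals stay in the values. Whether these totals follow RNA per cell was not tested. The median of all genes moved to −1.15, and all genes gave 380 higher (4.90%) and 5162 lower (66.6%) calls. On that scale the 10 genes gave 2 higher and 4 lower calls, targets 1 and 24, regulators 0 and 12, and paralogs 2 and 4. Mdm4 (−0.89), Sesn2 (−0.61) and Trp53inp1 (−0.75) turned direction, and Mdm4 and Mdm2 (−1.32) were called lower. With the leukocyte covariate, all genes gave 372 higher (4.80%) and 133 lower (1.72%) calls, against 24.6% and 24.1% without it. The 10 genes then gave 2 and 0, targets 5 and 1, regulators 0 and 0, and paralogs 2 and 0. The 2 genes that kept their call were Btg2 (2.73, edgeR adjusted p = 0.00158) and Gadd45a (1.99, edgeR adjusted p = 0.0251), and Ccng1 turned to 0.41. Thinning left 3941 genes tested, of which 23.2% were called higher and 22.3% lower. Among the list genes still tested, it gave 3 higher and 5 lower targets, 1 lower regulator and 0 lower paralogs. Regulators gave 1 higher call without the filter (13.1% of all tested genes) and 2 lower with MuSC marker scaling (15.6%). They gave between 1 and 4 higher when each library was left out, where the share of all tested genes was 22.7% to 25.9%. The cause of these changes was not tested.

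Replicate numbers did not pair the libraries, since deviations of same-numbered libraries correlated from −0.12 to 0.18 and only control replicate 5 correlated best with its own number. With the replicate block, the 10 genes gave 4 higher and 2 lower calls, beside 23.4% and 22.7% of all tested genes. Higher regulators numbered 1 instead of 3. With the 2 smallest Trpm7 cKO libraries left out the 10 genes gave 5 and 2 calls, beside 21.5% and 19.4% of all tested genes. Low counts limit Sesn1 and Sesn2, with as few as 3 (control replicate 1) and 5 (Trpm7 cKO replicate 3) in a library.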
